A study of Mus musculus with 6 samples.

Results

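The clustered protocadherin genes of the mouse lie together on chromosome 18. They were described here through the peaks of 2 marks of DNA, 5-methylcytosine (5mC) and its oxidised form 5-hydroxymethylcytosine (5hmC). Members were all peaks that overlap the 1 Mb of chromosome 18 that begins at 37050001 on mm9, which holds the Pcdha, Pcdhb and Pcdhg clusters. They numbered 239 of the 663518 peaks in the 6 lists. The interval was compared with the 1 Mb before it and the 1 Mb after it, which held 414 and 618 peaks.

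Clustered protocadherins are cadherin-like adhesion proteins of the cell surface, best known in neurons. In the Pcdha and Pcdhg clusters, a row of variable first exons, each with a promoter of its own, is spliced to constant exons shared by the whole cluster. The Pcdhb genes have no shared constant exons. A neuron uses only some of these promoters, and methylation of a promoter is known to go with its silence. The RefSeq gene table of GRCm38.p6, used here for names and order only, lists 14 Pcdha, 22 Pcdhb and 22 Pcdhg genes, of which 57 of 58 are protein-coding. Pcdha comes first, followed by Pcdhb, the genes Slc25a2 and Taf7, and Pcdhg. Diaph1 and Hdac3 are the next protein-coding genes after Pcdhg. No gene annotation of mm9 was used, so a peak is given by its position and not by a gene. Whether the ends of the interval reach into neighbouring genes was not checked.

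The cells came from a secondary reprogramming system of the strain OG2-GFP/Rosa26-M2rtTA, in which doxycycline switches on Tet1, Sox2, Klf4 and c-Myc. Fibroblasts derived from TSKM-iPS mice were taken at passage 4 without the drug. The same kind of fibroblast at passage 4 was taken after 3 days of doxycycline (day 3). An iPS cell line of this system, described in the labels as fully pluripotent, was taken between passages 10 and 15. The drug was given together with a change from feeder medium to ES medium, and iPS cells grew on mitomycin-treated MEFs, which a plating step was meant to clear before collection. Fibroblasts and day-3 cells shared passage 4, but drug and medium changed together between them and cannot be told apart. For iPS cells, medium, feeder cells, passage and stage cannot be told apart.

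Each stage and mark had 1 library, so differences between stages have no replicate check and were not tested. The read depth is unknown. Values for the 3 stages are given below in the order fibroblasts, day 3, iPS cells. The 5hmC lists held 42301, 116087 and 174079 peaks, and the 5mC lists held 104011, 165869 and 61171. List length thus moved with the stage, and its part in the stage differences below was not separated from that of the mark. A peak comes from a population of cells and does not say in how many cells, or on which allele, the mark was present. Intervals beside shares are 95% Wilson intervals, which cover counting error only.

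In fibroblasts the protocadherin interval had 1.70 times the autosomal 5mC length per Mb, but 0.981 times that of its flanks. The 5hmC length per Mb was low, at 0.361 times the autosomal value. At day 3 5hmC peaks were added at the far end of the interval, and in iPS cells 5mC was listed at few places. The number of 5hmC peaks in the interval was 6, 25 and 39, and that of 5mC peaks 67, 83 and 19. The 5hmC peaks covered 5.32 kb, 31.2 kb and 38.3 kb, and the 5mC peaks covered 77.9 kb, 107 kb and 18.8 kb. Peaks of either mark at any stage touched 136 kb of the interval. 5mC peaks touched 114 kb and 5hmC peaks 56.1 kb, with bases under both marks counted in each.

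**Figure D1:**
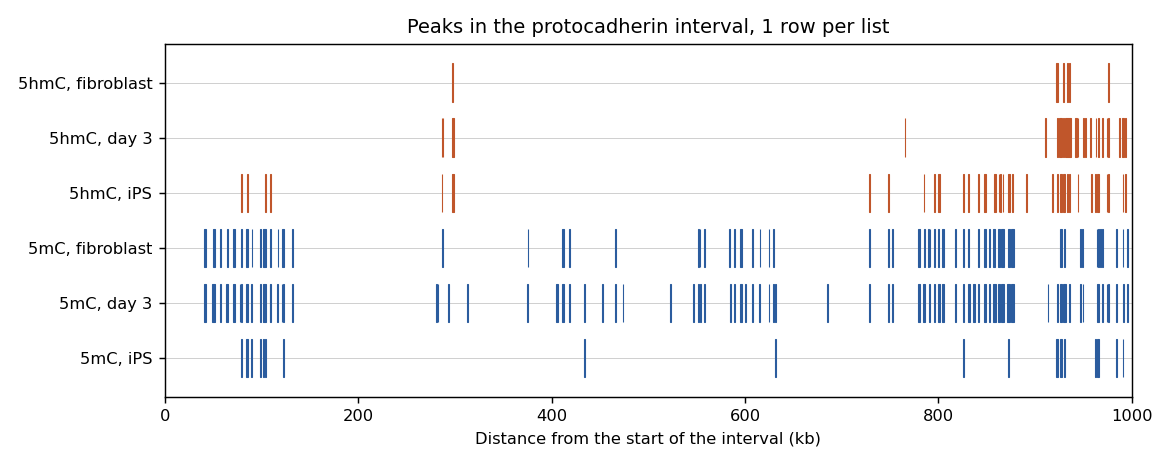
Position of each peak of the protocadherin interval, as distance in kb from its start, with 1 row per list (5hmC in orange, 5mC in blue). The 6 fibroblast 5hmC peaks lie at a single place near 300 kb and in the last 100 kb, whereas the 67 fibroblast 5mC peaks occur in groups along most of the interval.

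Along the interval, the peaks fell into groups that were alike in fibroblasts and at day 3. The runs of 50 kb steps used to describe them were chosen after their values were seen. The first 150 kb, from 37050001 to 37200000, held 19.2, 23.7 and 7.68 kb of 5mC. No 5hmC peak lay there in fibroblasts or at day 3, and 4 peaks covering 4.05 kb were listed in iPS cells. The following 100 kb, from 37200001 to 37300000, had no peak in any of the 6 lists. It is part of a stretch of 148 kb without any peak, from 37182282 to 37330715. Over all autosomes, 1263 stretches without a peak in any list were at least that long. How well reads can be placed in such stretches was not analysed here, so an absent peak is not shown to be an absent mark.

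A single step, from 37300001 to 37350000, carried 5hmC at each stage with no other 5hmC in the steps next to it. Its 5hmC peaks covered 0.75, 3.73 and 2.45 kb, and its 5mC peaks 0.895, 2.42 and 0 kb. The next 450 kb, from 37350001 to 37800000, held 5mC but almost no 5hmC. 5mC covered 16.5, 28.6 and 1.31 kb there, in 16, 27 and 2 peaks. 5hmC covered 0, 0 and 1.85 kb.

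The 150 kb from 37800001 to 37950000 held the densest 5mC of the interval in fibroblasts and at day 3, and little in iPS cells. 5mC covered 30.3, 36.2 and 1.82 kb. 5hmC covered 0, 0.701 and 14.6 kb there, so 5hmC was listed almost only in iPS cells. Neighbouring 5mC peaks of this run mostly followed each other at similar distances. The median distance between their centres was 5.01 kb in fibroblasts (quartiles 4.44 and 6.35 kb) and 5.12 kb at day 3 (4.76 and 6.18 kb). In the first 150 kb the median was 5.61 kb in fibroblasts (2.10 and 7.39 kb).

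The last 100 kb, from 37950001 on, held most of the day-3 5hmC. Its share of the interval's covered 5hmC length was 85.9%, 85.8% and 40.2%. 5hmC covered 4.57, 26.8 and 15.4 kb, and 5mC covered 11.015, 16.6 and 7.98 kb. Of the 25 day-3 5hmC peaks of the whole interval, 20 lay in this run. Whether they lie on Pcdhg or on the genes after it was not determined.

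**Figure D2:**
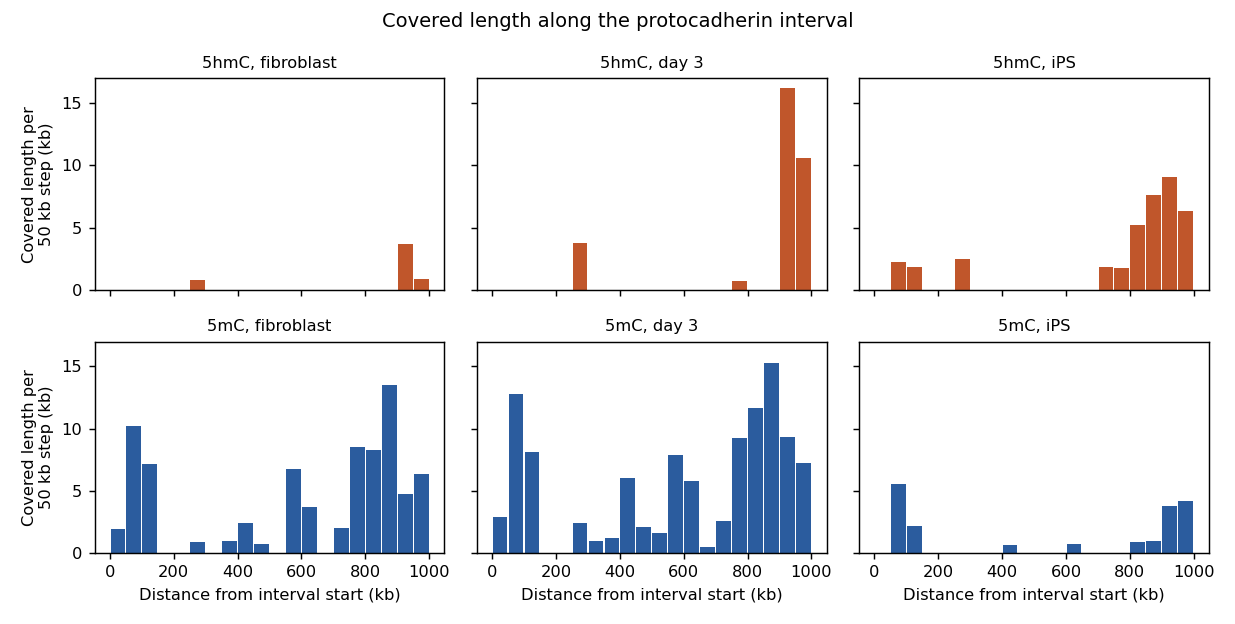
Covered length in kb of each of the 20 steps of 50 kb, against the distance in kb from the start of the interval, for 5hmC (top) and 5mC (bottom), with 1 panel of bars per stage. 5hmC at day 3 is highest in the last 2 steps, at 16.2 and 10.6 kb, and 5mC in fibroblasts and at day 3 is highest in the step that starts at 850 kb, at 13.5 and 15.2 kb.

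A smaller share of steps than of autosomal windows held 5hmC at each stage, and a larger share held 5mC at the first 2 stages, with a slightly smaller share in iPS cells. A 5hmC peak lay in 3 of 20 steps in fibroblasts, against 47.8% of all 48234 autosomal windows of 50 kb. At day 3 the count was 4 of 20 against 58% of windows, and in iPS cells 9 of 20 against 62.7%. A 5mC peak lay in 15 of 20 steps in fibroblasts against 55% of windows, in 18 of 20 at day 3 against 67.8%, and in 8 of 20 in iPS cells against 44.5%. No stage had a 5hmC peak in 11 of 20 steps (25.2% of windows had none), and no stage had a 5mC peak in 2 of 20 (30.2%). In 9 of 20 steps 5mC was present at some stage and 5hmC at none, a pattern found in 5.94% of windows.

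Steps were counted as changed where the covered length differed at least 2-fold and by at least 1 kb. From fibroblasts to day 3, 5hmC rose in 3 of 20 steps (36.5% of autosomal windows rose) and fell in 0 (5.77% fell). 5mC rose in 4 of 20 steps (16.3%) and fell in 0 (0.311%). From day 3 to iPS cells, 5hmC rose in 6 of 20 steps (22.8%) and fell in 0 (10.5%), while 5mC fell in 15 of 20 (40.3%) and rose in 0 (0.28%). From fibroblasts to iPS cells, 5hmC rose in 9 of 20 steps (42%), close to the share of all windows, and fell in 0 (1.6%). 5mC fell in 9 of 20 steps (21.4%) and rose in 0 (1.41%). In 5 of 20 steps 5mC fell and 5hmC rose between these stages, against 16.9% of windows. With equally long lists of best-scoring peaks, 5hmC rose from fibroblasts to iPS cells in 3 of 20 steps, and 5mC rose to day 3 in 1 of 20. With the steps shifted by 25 kb, 5mC rose to day 3 in 2 of 20.

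The step from 37900001 to 37950000 had both the largest loss of 5mC and the largest gain of 5hmC from fibroblasts to iPS cells. There 5mC covered 13.5, 15.2 and 0.948 kb, and 5hmC covered 0, 0 and 7.60 kb. The next largest loss of 5mC was in the step from 37800001 to 37850000, with 8.49 kb, 9.23 kb and 0 kb, where 5hmC covered 0 kb, 0.701 kb and 1.78 kb. The next largest gain of 5hmC was in the last step, from 38000001 on, with 0.883 kb, 10.6 kb and 6.33 kb. There day 3 was the highest stage, and 5mC covered 6.31 kb, 7.26 kb and 4.19 kb. In the step from 37950001 to 38000000, the most covered step of each 5hmC list, 5hmC covered 3.68 kb, 16.2 kb and 9.07 kb. The most covered step of the iPS 5mC list was near the start, from 37100001 to 37150000, where 5mC covered 10.2 kb, 12.8 kb and 5.56 kb.

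Set against its flanks, the interval was low in 5hmC at each stage. 5hmC covered 5.32 kb per Mb in fibroblasts, against 15.8 before and 30.1 after the interval. At day 3 the values were 31.2 against 74.8 and 110.9, and in iPS cells 38.3 against 119 and 192.7. Over both flanks together, the interval had 0.231, 0.336 and 0.246 times their 5hmC per Mb. For 5mC the values were 77.9 against 61.1 and 97.7 in fibroblasts, 107 against 116 and 149 at day 3, and 18.8 against 28.3 and 59.6 in iPS cells. The ratio to both flanks was 0.981, 0.811 and 0.427. The fibroblast and day-3 ratios of 5mC were 1.35 and 1.10 with a score of at least 100, so that only the iPS ratio stayed below 1 under each setting tried.

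**Figure D3:**
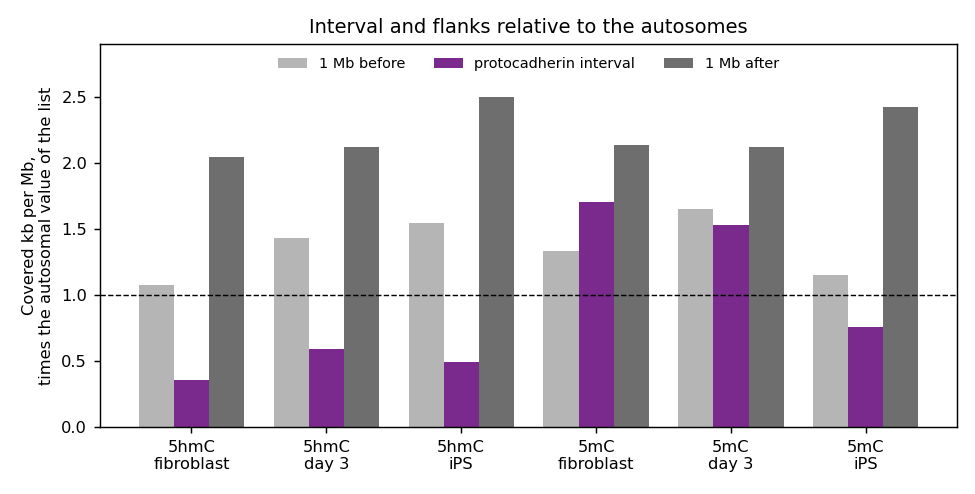
Covered kb per Mb in the 1 Mb before (light grey), within (purple) and after (dark grey) the protocadherin interval, divided by the autosomal value of the same list; the dashed line marks 1. Purple bars for 5hmC stand at 0.361, 0.596 and 0.497, below both grey bars at each stage, and those for 5mC stand at 1.70, 1.53 and 0.763.

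Values were also divided by the autosomal value of the same list, since the lists differ in length. On this scale the interval had 0.361, 0.596 and 0.497 times the autosomal 5hmC length per Mb. For 5mC it had 1.70, 1.53 and 0.763 times. The 1 Mb before had 1.33, 1.65 and 1.15 times for 5mC, and the 1 Mb after had 2.13, 2.12 and 2.42 times. 5mC in the interval thus went from above to below the autosomal value in iPS cells, and neither flank did so. Between fibroblasts and iPS cells, the covered 5mC length in the interval was multiplied by 0.241, against 0.464 before, 0.610 after and 0.538 over all autosomes. For 5hmC the factor was 7.21 in the interval, 7.52 before, 6.40 after and 5.24 over all autosomes. From fibroblasts to day 3 the 5hmC factor was 5.87, against 4.73 before, 3.68 after and 3.55 over all autosomes. From day 3 to iPS cells it was 1.23, against 1.59 before, 1.74 after and 1.47 over all autosomes. With equally long lists the 5hmC factor in the interval was 2.24 from fibroblasts to iPS cells and 3.46 to day 3. The factor from day 3 to iPS cells turned below 1 with stricter lists, at 0.946 with a score of at least 100 and 0.648 with equal numbers of peaks.

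Windows of 1 Mb over all autosomes were used to place the pairing of much 5mC with little 5hmC in fibroblasts. In 525 other windows of 2396 in all, fibroblast 5mC covered at least the 77.9 kb of the interval. Of these, 0 had 5hmC covering as little as its 5.32 kb, and their median was 27.5 kb. By 5hmC alone the interval was not extreme, since 602 windows had less. At day 3, 596 other windows had at least as much 5mC, and 6 of them had no more 5hmC than the 31.2 kb of the interval. In iPS cells 5 of 1061 such windows had no more than its 38.3 kb. This comparison was chosen after the data were seen. With a score of at least 100, 1 of 331 other windows had no more 5hmC than the interval in fibroblasts. The iPS count was 10 of 1065 with windows shifted by 500 kb and 24 of 1011 with equal numbers of peaks, and the day-3 count was 3 of 398 with a score of at least 100.

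**Figure D4:**
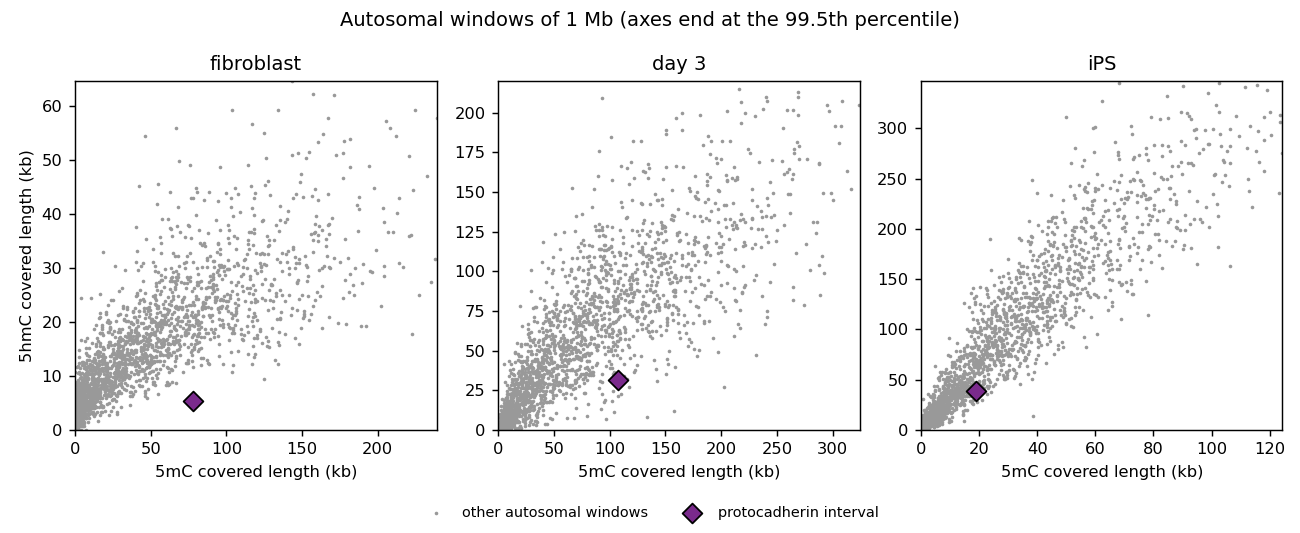
Covered length in kb of 5hmC against 5mC in autosomal windows of 1 Mb (grey points) and in the protocadherin interval (purple diamond), with 1 panel per stage. In fibroblasts the diamond, at 77.9 kb of 5mC and 5.32 kb of 5hmC, lies below every drawn window with as much 5mC; 23, 20 and 19 windows lie outside the axes of the 3 panels.

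The longest stretch of the interval without a 5hmC peak at any stage ran for 428.5 kb, from 37349409 to 37777916. Of the autosomal gaps between 5hmC peaks, 250 were at least that long, this stretch included. Most such gaps held little 5mC, with medians of 0, 1.81 and 0 kb per Mb. The protocadherin stretch held 15, 25 and 2 5mC peaks, which covered 14.5, 26.0 and 1.31 kb. Per Mb that was 33.9, 60.7 and 3.06 kb, and 0 of the 250 gaps had more at any of the 3 stages. The stretch was chosen for description after its values were seen. In fibroblasts alone the stretch without 5hmC was 624 kb long, from 37348172 to 37972137, and 260 autosomal gaps of that list were at least as long.

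Within fibroblasts, 5hmC and 5mC peaks of the interval did not overlap. Of the 6 fibroblast 5hmC peaks, 0 overlapped a fibroblast 5mC peak, which with so few peaks allows a share of up to 39.0%. The share in the whole list (27.2%) lies within that limit. The share in the flanks, 44.2%, lies above it, but its interval (31.6 to 57.7) reaches below it. Of the 67 fibroblast 5mC peaks, 0 overlapped a 5hmC peak, which allows up to 5.42%, against 15.5% in the flanks (10.6 to 22.2) and 11.1% of the whole list. With only 6 5hmC peaks in the interval, few 5mC peaks could overlap one, so this contrast cannot tell the interval from its flanks. Shares counted from the 5mC side depend on the number of 5hmC peaks in each region, also at the later stages. At day 3, 10 of 83 5mC peaks lay on 5hmC, or 12.0% (6.68 to 20.8), against 35.0% in the flanks (29.4 to 41.1) and 28.8% of the list. In iPS cells 12 of 19 did, or 63.2% (41.0 to 80.9), against 74.2% (64.7 to 81.9) and 67.2%, so the interval of the share includes both values. Counted from the 5hmC side, 10 of 25 peaks lay on 5mC at day 3 and 12 of 39 in iPS cells, or 40.0% (23.4 to 59.3) and 30.8% (18.6 to 46.4). The whole lists gave 40.4% and 23.5%.

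Between stages, most fibroblast 5mC peaks were listed at day 3, in the interval as in the whole list, and a smaller share in iPS cells. Of the 67 fibroblast 5mC peaks, 65 overlapped a day-3 5mC peak, or 97.0% (89.8 to 99.2), and 16 overlapped an iPS 5mC peak, or 23.9% (15.3 to 35.3). In the flanks these shares were 89.9% (84.0 to 93.8) and 41.2% (33.6 to 49.3), and in the whole list 89.7% and 39.4%. Of the 83 day-3 peaks, 18 occurred at that stage alone, or 21.7% (14.2 to 31.7), against 39.0% in the flanks (33.2 to 45.1) and 38.3% of the list. Of the 19 iPS 5mC peaks, 15 lay on a 5mC peak of both earlier stages, or 78.9% (56.7 to 91.5). Another 1 of the 19 lay on none, or 5.26% (0.935 to 24.6). The whole list gave 64.8% and 16.6%, each within the interval of its share.

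The 5hmC peaks of the interval present in fibroblasts were all listed again. Each of the 6 overlapped a 5hmC peak at day 3 and in iPS cells, which with 6 peaks leaves a share from 61.0% up. In the flanks 48.1% (35.1 to 61.3) overlapped both later lists, and in the whole fibroblast list 29.3%. Of the 25 day-3 peaks, 10 were found at day 3 alone, 10 also in iPS cells only, and 5 at all stages. These are 40.0% (23.4 to 59.3), 40.0% and 20% (8.86 to 39.1), and the whole list gave 49.3%, 37.5% and 10.9%, each within the interval of its share. Of the 39 iPS peaks, 23 had no earlier 5hmC peak, or 59.0% (43.4 to 72.9), close to the 58.7% of the whole list. The 10 peaks found at day 3 alone comprised 8 in the last 100 kb, the peak from 37337179 to 37338134, and the peak from 37815178 to 37815878, which overlapped no peak of another list.

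Most iPS 5hmC peaks of the interval lay where fibroblasts had 5mC. Of the 39 iPS 5hmC peaks, 26 overlapped a fibroblast 5mC peak, or 66.7% (51.0 to 79.4). In the flanks the share was 34.4% (29.3 to 40.0) and in the whole list 39.9% (39.7 to 40.2). A day-3 5mC peak lay under 29 of the 39, or 74.4% (58.9 to 85.4), against 51.8% in the flanks (46.2 to 57.4). Neither mark was listed in fibroblasts under 8 of the 39, or 20.5% (10.8 to 35.5), against 59.5% in the flanks (53.9 to 64.9). Day-3 5hmC did not show this, as 9 of 25 peaks lay on fibroblast 5mC, or 36.0% (20.2 to 55.5), against 34.1% in the flanks (27.6 to 41.2). These shares also depend on how many peaks of each list a region holds. Per Mb, the interval held 39 iPS 5hmC and 67 fibroblast 5mC peaks, against 149.5 and 74 in the flanks. Counted from the fibroblast 5mC side, 25 of 67 peaks lay on iPS 5hmC, or 37.3% (26.7 to 49.3). In the flanks that share was higher, at 68.2% (60.4 to 75.2).

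The reverse question is what became of the fibroblast 5mC peaks. In iPS cells 36 of the 67 had neither mark, or 53.7% (41.9 to 65.1). This share was 22.3% in the flanks (16.3 to 29.7), made up of 32.2% before the interval (21.7 to 44.9) and 15.7% after it (9.61 to 24.7), and 23.5% of the whole list. 5hmC without 5mC was found at 15 peaks, or 22.4% (14.1 to 33.7), against 36.5% in the flanks (29.2 to 44.5). Both marks were found at 10, or 14.9% (8.31 to 25.3), against 31.8% (24.8 to 39.6). 5mC without 5hmC was found at 6, or 8.96% (4.17 to 18.2), against 9.46% (5.72 to 15.3). These shares depend on how much of a region the iPS lists cover. In iPS cells the interval had 0.246 times the 5hmC and 0.427 times the 5mC length per Mb of the flanks. The share with neither mark is thus not separate from those ratios.

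**Figure D5:**
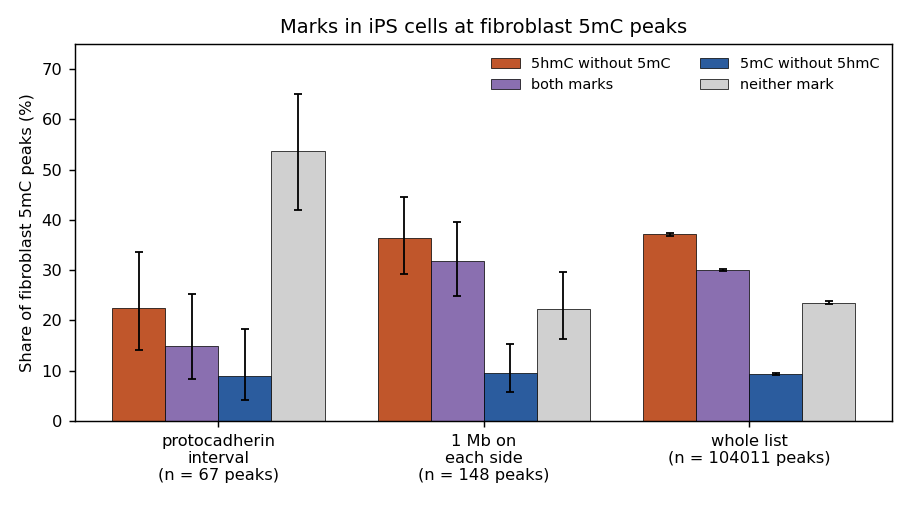
Share in percent of fibroblast 5mC peaks with 5hmC without 5mC, both marks, 5mC without 5hmC or neither mark in iPS cells, in the protocadherin interval (n = 67 peaks), in 1 Mb on each side (n = 148) and in the whole list (n = 104011). Bars are shares and error bars 95% Wilson intervals; neither mark is the largest class in the interval, at 53.7%, against 22.3% and 23.5%.

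Scores, which the authors' caller gave to each peak and which rank peaks within a list, were high for early 5mC in the interval. Fibroblast 5mC peaks of the interval had a median score of 158.06 against 90.35 over the autosomes, and day-3 5mC peaks 213.9 against 107.33. In iPS cells the medians were 74.62 and 76.23. The 5mC peaks of the interval had median widths of 1032, 1134 and 874 bp, against 937, 897 and 882 bp over the autosomes. Among fibroblast 5mC peaks with a score of at least 100, 16 of 44 in the interval had neither mark in iPS cells, or 36.4% (23.8 to 51.1). The same peaks in the flanks gave 7 of 64, or 10.9% (5.40 to 20.9), and the whole list gave 10.04%. Within the interval, peaks with neither mark had a median score of 93.38, those with 5mC without 5hmC 136.53, those with 5hmC without 5mC 168.36, and those with both marks 282.405. The order was the same in the whole list, at 68.74, 86.655, 87.19 and 140.02.

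Fates were also counted in the runs of steps described above. Those runs were chosen after the covered lengths in all lists were seen, so a difference in fate between them is not a separate result. In the first 150 kb, 10 of 19 fibroblast 5mC peaks had neither mark in iPS cells, 5 had 5mC without 5hmC, 3 had both and 1 had 5hmC without 5mC. In the 450 kb from 37350001 to 37800000, 14 of 16 had neither mark and 2 had 5hmC without 5mC. In the 150 kb from 37800001 to 37950000, 11 of 20 had 5hmC without 5mC, 2 had both and 7 had neither. In the last 100 kb, 5 of 11 had both marks, 5 had neither and 1 had 5mC without 5hmC. Of the 67 peaks, 7 had 5hmC at day 3, and 6 of these lay in the last 100 kb.

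The best-scoring peaks of the interval lay toward its end, except that of iPS 5mC. In fibroblasts the best 5mC peak, from 37925650 to 37928233, had a score of 1068.78 and rank 456 of 104011. The best day-3 5mC peak, from 37925556 to 37928347, lay on it, with a score of 2230.92 and rank 464 of 165869. An iPS 5hmC peak overlapped both, and no iPS 5mC peak did. The best iPS 5mC peak, from 37128608 to 37129905, had a score of 370.95 and overlapped iPS 5hmC and both earlier 5mC lists.

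For 5hmC, the best fibroblast peak, from 37972138 to 37973583, had a score of 1007.46 and rank 252 of 42301, and it overlapped both marks at both later stages. The best day-3 peak, from 38040410 to 38041838, had a score of 2113.19 and rank 759 of 116087. It overlapped 4 other lists, all except fibroblast 5hmC. The best iPS peak, from 37975409 to 37978028, had a score of 785.44 and likewise overlapped all lists except fibroblast 5hmC.

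No base of the interval was covered by all 6 lists. All 3 5hmC lists shared 6 regions of 4.48 kb in total, 1 from 37347422 to 37348169 and the others between 37972503 and 38026750. All 3 5mC lists shared 16 regions of 14.3 kb in total, 8 in the first 150 kb, 2 between 37800001 and 37950000, and 6 in the last 100 kb. Of the bases covered by fibroblast 5mC, 92.7% were covered by day-3 5mC, 31.1% by iPS 5hmC and 18.6% by iPS 5mC.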

How the data were processed

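DNA of 3 stages was immunoprecipitated with an antibody against 5hmC or 5mC and sequenced, with 1 library per stage and mark. Per the labels' protocols, adapters were ligated to sonicated DNA before the precipitation, 500 ng entered each reaction, 14 to 16 cycles of amplification followed, and fragments of 300 to 500 bp were purified. Such a capture favours DNA with many CpG and does not resolve single cytosines. Tools named in the submitters' processing notes are MACS 1.4.1, Bowtie 0.12.7 and CASAVA 1.8, with the build mm9. Each deposited file is a peak list with a score per peak, made by the authors' peak caller for 1 library. The lowest deposited score was 50 or 50.01 in each list. The sources used here do not give the control library, the caller's settings or the read depth.

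Peaks overlapping the interval by at least 1 bp were its members, and covered length was cut at its ends. Coordinates are on mm9, counted from 1. Windows of 50 kb and 1 Mb were tiled from the interval's start over the autosomes, between the first and last base covered by any list. Regions named are the most covered step and best-scoring peak of each list, the 2 steps with the largest gain and loss of each mark from fibroblasts to iPS cells, steps without peaks and regions shared by lists. Steps with a loss of 5hmC or a gain of 5mC did not occur. The members and rules were chosen with earlier results of these data known. Alternatives were a score of at least 100, equal numbers of best-scoring peaks (42301), other flanks, an overlap of at least 50%, and shifted steps. The counting was tested on simulated data in 20 runs with 0 wrong values. Python 3.11.15, numpy 2.4.6, scipy 1.17.1 and matplotlib 3.10.9 were used.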

Additional observations from a re-analysis of the deposited data

Results flagged for a closer look

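From fibroblasts or day 3 to iPS cells, the marks went in opposite directions in the interval. Both flanks and all autosomes showed the same. Between fibroblasts and day 3, by contrast, both marks rose, to 5.87 times for 5hmC and 1.38 times for 5mC in the interval. From fibroblasts to iPS cells the covered 5hmC length was higher by 33.0 kb and the 5mC length decreased by 59.1 kb. The later length was 7.21 times the earlier for 5hmC and 0.241 times for 5mC in the interval, against 5.24 and 0.538 times over all autosomes. From day 3 to iPS cells 5hmC was higher by 7.15 kb and 5mC decreased by 88.7 kb. This opposition from day 3 to iPS cells was lost with stricter lists, where the 5hmC length of iPS cells was 0.946 times that of day 3 (score of at least 100) or 0.648 times (equal numbers of peaks). Single libraries stand behind each of these values. Whether the change differs between the marks was not tested.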

How the results depend on the processing

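No paired analysis was possible because each stage and mark had 1 library, and no replicate could be left out. An overlap of at least 50% left the 12 shares tried within their intervals, and flanks of 500 kb left the 6 ratios to the flanks within 1.5 times. The ratio of 5mC to the flanks turned above 1 in fibroblasts, at 1.35 with a score of at least 100, 1.38 with equal numbers of best-scoring peaks and 1.18 with flanks of 2 Mb, and at day 3, at 1.10 and 1.499 with the first 2 settings. The 5hmC length of iPS cells over that of day 3 turned below 1 with these settings, at 0.946 and 0.648.

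With a score of at least 100, the 5mC length of iPS cells was 0.0794 times that of day 3 and 0.123 times that of fibroblasts. The share of fibroblast 5mC peaks on iPS 5mC was 11.4%, and that of day-3 5hmC on iPS 5hmC was 35.7% (5 of 14). Fibroblast 5mC peaks had both marks in iPS cells in 6.82% and neither in 65.9%. Filtering only the counted peaks, an alternative chosen after seeing the data, gave 36.4% with neither. With equally long lists, the 5hmC length at day 3 was 3.46 times and in iPS cells 2.24 times that of fibroblasts. The share of fibroblast on day-3 5mC was then 100% (43 of 43). That of day-3 on iPS 5hmC was 36.4%, from 4 of 11 peaks (15.2 to 64.6). That of iPS 5hmC on iPS 5mC was 50%, from 4 of 8 peaks (21.5 to 78.5). Fibroblast 5mC peaks then had 5hmC without 5mC in 6.98%, both marks in 6.98%, 5mC without 5hmC in 18.6% and neither in 67.4%. 5hmC rose from fibroblasts to iPS cells in 3 steps, and 5mC rose to day 3 in 1 step, or in 2 with steps shifted by 25 kb. The share with neither mark stayed above that of both flanks together and of the whole list under each setting: 65.9% against 28.1% and 26.3% with a score of at least 100, 67.4% against 32.3% and 30.2% with equal numbers, and 56.7% against 24.3% and 26.5% with an overlap of at least 50%. This share depends on the covered length of the iPS lists, which was lower in the interval than in the flanks. The share of iPS 5hmC peaks on fibroblast 5mC, recomputed in a way chosen after seeing the data, was 76.5% with a score of at least 100 and 75% (6 of 8) with equal numbers. The cause of these shifts was not tested. Depth is unknown and limits every comparison between stages.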
